A study of Rattus norvegicus with 55 samples.

Results

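Kidney RNA of rats described as mature was compared with kidney RNA of rats described as young, on the arrays that read low for probe set X56596_at, which the platform annotation assigns to RT1-Bb, an MHC class II beta chain gene. The arrays were chosen by that measured value, and one was kept where its X56596_at intensity lay below 600. The rule kept 22 of the 55 arrays, 11 mature and 11 young, and set aside 3 mature and 3 young arrays. X56596_at is therefore given only as a description. On the 22 arrays it read 80.1 to 263, and on the 6 arrays set aside it read 1672 to 2008, so no array lay near the limit.

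Every sample of the series was total RNA of kidney on a 1-colour Affymetrix rat array. All titles carry the strain name SHR, the usual abbreviation of the spontaneously hypertensive rat, and all descriptions call the animals Wistar-derived and add, for most arrays, a stage word. Both groups therefore share strain name and tissue and differ in the word mature or young. Age, sex, diet and treatment are not in the labels, nor whether each array stands for an animal of its own. The p-values below thus measure only the spread between these arrays, which may be technical.

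The label RT1-Bb-low describes 1 probe set rather than the gene. On the 22 arrays X56596_at had a median of 148 and on the 6 set-aside arrays 1818. M36151cds_i_at, also annotated to RT1-Bb, had medians of 606 and 4.0 on the same arrays, and U65217_i_at had 492 and 7.3. Another of its probe sets, M36151cds_s_at, had 1183 on the 22 arrays and 1212 on the set-aside arrays. The arrays are therefore called X56596_at-low here. Both groups read as kidney. Umod, the urinary protein of the thick ascending limb, had median intensities of 15915 on mature and 12910 on young arrays, and Slc34a1, the proximal sodium-phosphate cotransporter, had 21328 on mature and 18664 on young arrays at its brightest probe set, AB013455_g_at, though not all its probe sets run this way. Lrp2 (megalin) of the proximal brush border had medians of 11750 on mature and 11028 on young arrays, and Aqp2, the vasopressin-regulated water channel of the collecting duct, had 1881 on mature and 1924 on young arrays.

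While the rat kidney grows, its tubules lengthen by cell division and its interstitial fibroblasts lay down fibrillar collagens. As growth slows, cells leave the cell cycle and collagen synthesis declines, while tubule cells take on their adult transport and metabolic functions. The proximal tubule of the adult burns fatty acids, makes glucose and degrades amino acids. The distal convoluted and connecting tubules recover calcium with the help of calbindin and release tissue kallikrein.

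Intensities were used as deposited, as log2(intensity + 15.82), and a probe set was called where its Benjamini-Hochberg adjusted p in limma, over 6555 probe sets, was below 0.05. Some arrays stood apart. On mature replicates 1 and 9 the ratio of the 3′ to the 5′ GAPDH control probe set, which rises when RNA is broken or copied incompletely, was 7.18 and 3.47, against at most 1.45 on the other 20 arrays. The actin 3′ to 5′ ratio was 5.08 and 5.55 on these 2 arrays, 2.75 on mature replicate 5 and at most 1.73 on the rest. Mature replicate 5 was also the array with the GAPDH ratio of 1.45. Mature replicates 1 and 9 had median correlations of 0.826 and 0.850 with the other arrays, mature replicate 5 had 0.925, young replicate 12 had 0.943 and the rest had 0.957 to 0.973. Clusters of the control probe sets divided the arrays into 3 batches. The shared batch held 10 mature and 8 young arrays, mature replicate 5 lay in another, and young replicates 3, 4 and 13 in the third. Over 8 technical measures the smallest adjusted permutation p between the groups was 0.469. Each main result is therefore given on all 22 arrays and on the 16 arrays of the shared batch with a GAPDH ratio of at most 3, which are 8 mature and 8 young arrays.

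Between mature and young kidney 27 of 6555 probe sets were called (0.412%), 14 higher (0.214%) and 13 lower (0.198%) in mature kidney. At an unadjusted p below 0.05 there were 489 (7.46%). Differences were small, with a median absolute log2 difference of 0.16 and 30 probe sets past 1 on the log2 scale, and the groups did not overlap at all at 10 probe sets (0.153%). Of 3837 named genes, each at its brightest probe set, 11 were called (0.287%), 5 higher (0.13%) and 6 lower (0.156%). Without the 2 arrays of high GAPDH ratio, 44 probe sets were called (0.671%), including all 27. On the 16 arrays 90 were called (1.37%), 53 higher (0.809%) and 37 lower (0.564%), and 24 of the 27 were among them. At an unadjusted p below 0.05 there were 737 on those arrays (11.2%), the groups did not overlap at 48 (0.732%), and 45 named genes were called (1.17%), 28 higher (0.73%) and 17 lower (0.443%). With the control-probe batch as a block, 25 were called (0.381%), 20 of them shared with the 27, and on the 18 arrays of the shared batch 17 were called (0.259%), 15 of them shared. The other batches each hold a single stage among the 22 arrays. The block fit therefore takes its log2 differences from those 18 arrays, differs from their own fit only in the error estimate, and is no separate check of sign. All 27 kept their sign in each of these fits, as the plot of named probe sets in 22 and 16 arrays shows for those with a gene name.

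**Figure D1:**
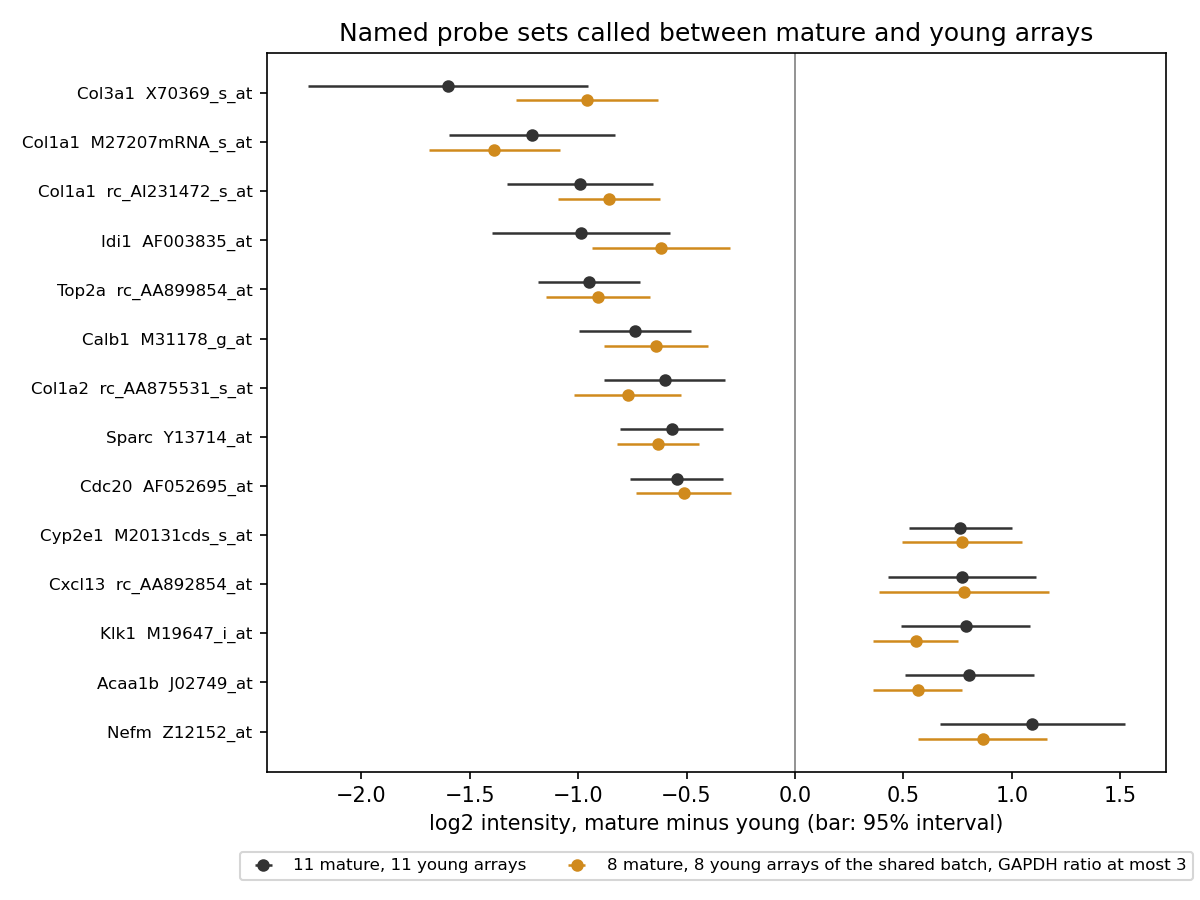
Log2 difference, mature minus young, of the 14 called probe sets that carry 1 gene name, with 95% intervals. Dark points are fitted on 11 mature and 11 young arrays and orange points on the 8 mature and 8 young arrays of the shared batch with a GAPDH ratio of at most 3. The 9 lower probe sets lie left of 0 and the 5 higher ones right of it in both fits.

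The largest group of named falls was fibrillar collagen. Col1a1, the alpha 1 chain of type I collagen, fell at 2 of its 4 probe sets, and Col1a2, its partner chain, and Col3a1, the chain of type III collagen, fell as well. Col1a1 (M27207mRNA_s_at) had a lowest, median and highest intensity of 439, 621 and 1960 on mature arrays, against 1256, 1721 and 2453 on young arrays. Of the 11 mature arrays, 10 lay below every young array, and the exception was mature replicate 9, an array of high GAPDH ratio. The log2 difference was -1.21 (SE 0.186, 11 and 11 arrays, limma adjusted p = 0.000928), a level 2.32-fold higher in young kidney. On the 16 arrays it was -1.39 (SE 0.145, adjusted p = 6.34e-05) and the groups did not overlap. All 4 Col1a1 probe sets were called lower on those 16 arrays, with log2 differences of -0.63 to -1.39.

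Col3a1 (X70369_s_at) had 62.0, 397 and 573 on mature arrays, against 636, 870 and 1202 on young arrays, with no overlap. Its log2 difference was -1.60 (SE 0.313, limma adjusted p = 0.0107). The lowest mature values, 62.0 to 106, were those of replicates 1, 5 and 9, and the difference was -0.96 (adjusted p = 0.00284) on the 16 arrays. With the batch block it was -1.44 and not called (adjusted p = 0.0739). The brighter Col3a1 probe set, M21354_s_at, passed neither on 22 arrays, at -0.78 (adjusted p = 0.221), nor on the 16, at -0.35 (adjusted p = 0.383). Col1a2 had 329, 487 and 878 on mature arrays and 600.5, 717 and 912 on young arrays. Its log2 difference of -0.60 (SE 0.135, limma adjusted p = 0.0408) was not called with the block (0.0810), was called in 4 of 22 fits that each left out 1 array, and was -0.77 (adjusted p = 0.00254) on the 16 arrays, where the groups did not overlap. X70369_s_at of Col3a1, rc_AI231472_s_at of Col1a1 and Y13714_at of Sparc are not the brightest probe sets of their genes and were chosen after their values were seen.

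Sparc, a secreted protein that binds collagen during matrix assembly, fell at Y13714_at, with 1119, 1460 and 1872 on mature arrays and 1621, 2326 and 2645 on young arrays. Of the mature arrays 7 lay below every young array, and the log2 difference was -0.57 (SE 0.115, limma adjusted p = 0.0134), and -0.63 (adjusted p = 0.00105) on the 16 arrays. On the 16 arrays 3 of the 4 Sparc probe sets were called lower. The brightest, rc_AA892248_at, was not, with -0.52 (adjusted p = 0.664) on 22 arrays and -0.04 (adjusted p = 0.949) on the 16. Eln, which encodes elastin, had a log2 difference of -0.45 that did not pass on 22 arrays (adjusted p = 0.0970) and one of -0.53 that passed on the 16 (adjusted p = 0.0145). In the list of fibrillar collagens and interstitial matrix, 24 of 30 genes were measured, each at its brightest probe set. Col1a1 and Col1a2 were called lower and none higher, and 21 of the 24 lay below 0, with a median log2 difference of -0.25. Over all 3837 named genes the median was -0.0045, 50.8% lay below 0, and 0.156% were called lower. The list had, on the 16 arrays, 3 genes called lower (Col1a1, Col1a2 and Eln) and 1 higher, and 20 lay below 0. Over all named genes on the 16 arrays 0.443% were called lower, 0.73% were called higher and 58.7% lay below 0. The list gene called higher was Timp3, an inhibitor of matrix metalloproteinases chosen after its values were seen, at 0.69 (adjusted p = 0.00478), against -0.23 (adjusted p = 0.872) on 22 arrays. Of 7 measured basement membrane genes none was called, and the smallest p was that of Agrn, the proteoglycan agrin, at -0.37 (adjusted p = 0.164). Fewer cells of a type and less RNA per cell cannot be told apart in whole kidney.

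**Figure D2:**
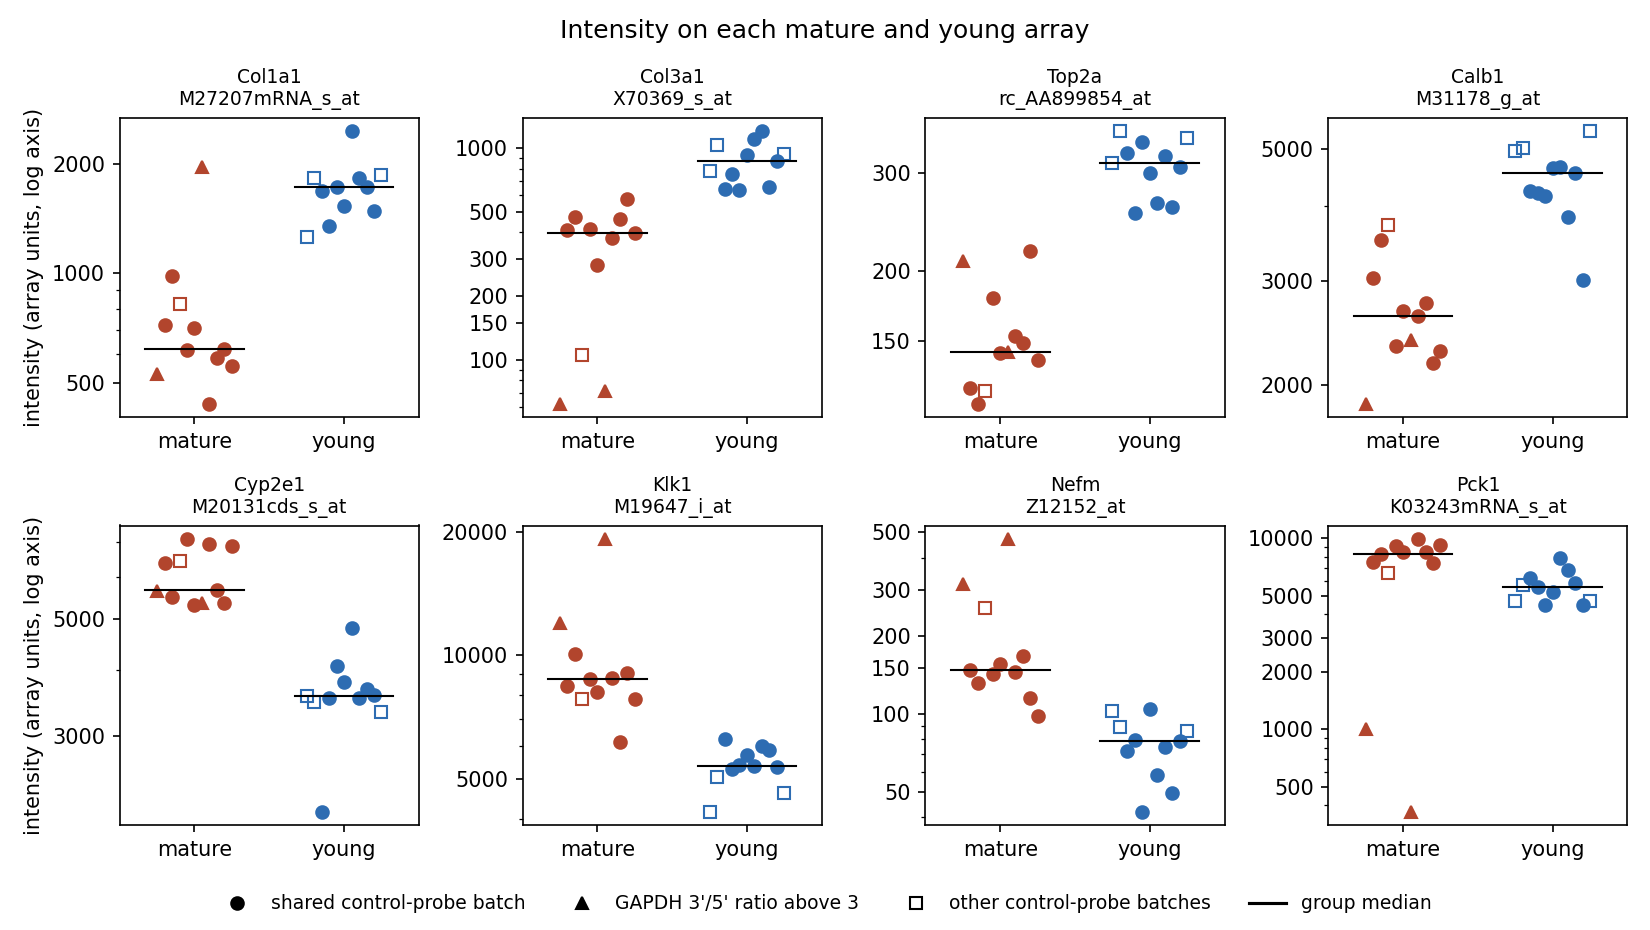
Intensity on each of the 11 mature and 11 young arrays, on log axes, for 8 probe sets. Triangles are mature replicates 1 and 9, whose GAPDH ratio was above 3, open squares are arrays outside the shared batch, and lines are group medians. Top2a, Col3a1 and Cyp2e1 separate the groups completely, and Pck1 is lowest on the 2 triangles.

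Mitotic genes were lower in mature kidney at 2 named genes. Top2a, the DNA topoisomerase that separates replicated chromosomes, had the smallest p of all probe sets. Its intensities were 116, 143 and 218 on mature arrays, against 254, 312 and 357 on young arrays, and the groups did not overlap. The log2 difference was -0.95 (SE 0.115, limma adjusted p = 9.37e-05), and it was -0.91 (adjusted p = 0.000264) on the 16 arrays and -0.87 (adjusted p = 0.00106) with the batch block. A dimmer Top2a probe set, Z19552cds_at, had a log2 difference of -0.15 (adjusted p = 0.810). Cdc20, which activates the ubiquitin ligase that triggers anaphase, had 132, 169 and 207 on mature arrays and 185, 247 and 307 on young arrays. Of the mature arrays 10 lay below every young array, and the log2 difference was -0.55 (SE 0.105, limma adjusted p = 0.00879), and -0.51 (adjusted p = 0.0145) on the 16 arrays. Cdk1, the cyclin-dependent kinase of mitotic entry, had 21.6, 89.8 and 156 on mature arrays and 106, 167 and 224 on young arrays. Its log2 difference of -0.96 (SE 0.230) did not pass (adjusted p = 0.0715), nor did -0.78 on the 16 arrays (adjusted p = 0.123).

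In the list of mitosis and DNA replication, 19 of 40 genes were measured. Top2a and Cdc20 were called lower, none was called higher, 14 lay below 0 and the median was -0.23. The same 2 genes were called on the 16 arrays, where 15 lay below 0 and the median was -0.16. Over all named genes 0.156% were called lower and 50.8% lay below 0 on 22 arrays, and 0.443% and 58.7% on the 16. The 3 mitotic genes with the smallest p share short promoter elements known from human and mouse cell-cycle genes, the CCAAT box and the cell-cycle homology element TTTGAA. Their promoters are shown so that these letters can be read beside the values above, although Cdk1 did not pass the test. The 250 bases before the RefSeq start of each gene in GRCr8 are read along the gene's strand, and capitals mark CCAAT and TTTGAA on either strand (ATTGG and TTCAAA on the other). The marked motifs do not overlap.
Top2a, chr10:84473094-84473343, minus strand: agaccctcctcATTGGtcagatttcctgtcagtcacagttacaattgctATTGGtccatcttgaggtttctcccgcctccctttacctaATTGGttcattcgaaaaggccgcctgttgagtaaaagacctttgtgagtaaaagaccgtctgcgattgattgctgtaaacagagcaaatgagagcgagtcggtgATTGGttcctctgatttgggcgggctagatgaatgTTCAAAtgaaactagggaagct
Cdk1, chr20:19265043-19265292, plus strand: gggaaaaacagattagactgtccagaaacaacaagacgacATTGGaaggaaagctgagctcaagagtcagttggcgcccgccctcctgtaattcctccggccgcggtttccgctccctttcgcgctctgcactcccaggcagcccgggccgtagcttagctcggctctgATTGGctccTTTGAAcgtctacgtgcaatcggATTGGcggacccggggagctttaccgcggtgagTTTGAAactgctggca
Cdc20, chr5:137255800-137256049, minus strand: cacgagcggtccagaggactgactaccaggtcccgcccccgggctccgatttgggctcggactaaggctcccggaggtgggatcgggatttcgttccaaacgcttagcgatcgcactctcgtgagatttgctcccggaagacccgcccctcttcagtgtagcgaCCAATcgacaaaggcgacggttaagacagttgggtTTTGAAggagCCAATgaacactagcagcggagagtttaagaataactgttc
Top2a held 4 CCAAT boxes and 1 TTTGAA, Cdk1 held 3 and 2, and Cdc20 held 2 and 1. Of the 33469 RefSeq promoters of the same length, 34.0% held CCAAT, 16.2% held TTTGAA and 5.87% held both. A match is a description of these letters and not a bound site.

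Calb1 encodes calbindin-D28k, the cytosolic calcium buffer of the distal convoluted and connecting tubules. It fell, with 1863, 2619 and 3713 on mature arrays and 3004, 4541 and 5348 on young arrays. Of the mature arrays 8 lay below every young array, and its log2 difference was -0.74 (SE 0.126, limma adjusted p = 0.00289). Calb1 had -0.64 (adjusted p = 0.00537) on the 16 arrays. It was the only 1 of 25 measured loop and distal nephron genes that was called in either fit. Over all named genes 0.287% were called on 22 arrays and 1.17% on the 16. Slc12a1, the sodium-potassium-chloride cotransporter of the thick ascending limb, had a log2 difference of -0.45 (adjusted p = 0.583). Among 37 measured genes of proximal transport and the brush border none was called on 22 arrays, and their median was -0.0040, while on the 16 arrays 1 was called higher, the peptide transporter Slc15a1 at 0.69 (adjusted p = 0.0449), and 1 lower, the aminopeptidase Anpep at -0.31 (adjusted p = 0.0261). Slc34a1, counted at AB013455_g_at with a log2 difference of 0.21 (adjusted p = 0.701), fell at another probe set on the 16 arrays. That probe set, AB013453_at, singled out after its values were seen, had 890.1, 1063 and 3132 on the 8 mature arrays and 1682, 2923 and 4527 on the 8 young arrays, with overlap. Its log2 difference was -1.25 (adjusted p = 0.0108) there and -0.95 (adjusted p = 0.140) on 22 arrays. The sodium-dicarboxylate cotransporter Slc13a2 had 0.77 (adjusted p = 0.331) and the brush border metalloprotease Mep1b had -0.49 (adjusted p = 0.148).

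Among the rises with a gene name, Cyp2e1 had the smallest p. This cytochrome P450 oxidises small molecules such as ethanol and acetone. M20131cds_s_at had 5317, 5682 and 7084 on mature arrays, against 2152, 3573 and 4797 on young arrays, and every mature array lay above every young array. The log2 difference was 0.76 (SE 0.115, limma adjusted p = 0.000861), a level 1.70-fold higher in mature kidney, and it was 0.77 (adjusted p = 0.00442) on the 16 arrays. The other Cyp2e1 probe sets had 0.28 and 0.11 on 22 arrays, not called, and 0.68 (adjusted p = 0.00442) and 0.66 (adjusted p = 0.00259) on the 16. Cyp2c11, a male-specific P450 of rat liver, had a log2 difference of 0.03 with a 95% interval of -0.40 to 0.46 (J02657_s_at, 22 arrays). Cyp2c11 was at 0.47 (adjusted p = 0.203) on the 16 arrays, so neither fit called it.

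Klk1, the tissue kallikrein that releases kinins from kininogen, rose at M19647_i_at. Mature arrays had 6156, 8736 and 19191, young arrays had 4160, 5383 and 6243, and 10 of 11 mature arrays lay above every young array. The difference between the means was 0.79 on the log2 scale (SE 0.145, limma adjusted p = 0.00606). The 2 brightest mature arrays were replicates 1 and 9, those of high GAPDH ratio, and the difference was 0.56 (adjusted p = 0.00380) on the 16 arrays. The second Klk1 probe set, M19647_f_at, had 0.25 (adjusted p = 0.674) on 22 arrays and 0.50 (adjusted p = 0.0142) on the 16. Klk1b3 and Klk1c3, kallikreins of the same gene cluster that were chosen after their values were seen, had 0.49 and 0.48 on 22 arrays, not called, and 0.84 (adjusted p = 0.00447) and 0.64 (adjusted p = 0.0190) on the 16. Rat kallikreins are near-identical copies, so these probe sets may read the same transcripts and are not independent. Kng2, a kininogen, had 0.70 (adjusted p = 0.280). Of 10 measured renin-angiotensin and kallikrein-kinin genes Klk1 alone was called, in either fit. Over all named genes 0.287% were called on 22 arrays and 1.17% on the 16. Enpep, the aminopeptidase that shortens angiotensin, had -0.95 (adjusted p = 0.611) on 22 arrays, with 18.5, 442 and 692 on mature arrays. On the 16 arrays the lowest log2 difference in the list was -0.19.

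Nefm, the medium neurofilament chain of nerve axons, had the largest rise with a gene name. It had 98.6, 148 and 471 on mature arrays and 42.0, 78.4 and 105 on young arrays, and 10 mature arrays lay above every young array. Its signal was low, with both medians below 158.2, the median intensity of all probe sets and arrays. The log2 difference was 1.10 (SE 0.208, limma adjusted p = 0.00804) and, on the 16 arrays, 0.87 (adjusted p = 0.00300). The 3 highest mature values, 257 to 471, were those of replicates 1, 5 and 9. Acaa1b, a peroxisomal thiolase of fatty acid breakdown, had 696, 805 and 1722 on mature arrays and 428, 499 and 677 on young arrays, with no overlap. Its log2 difference was 0.80 (SE 0.145, limma adjusted p = 0.00485) on 22 arrays and 0.57 (adjusted p = 0.00442) on the 16. The 3 highest mature values of Acaa1b, 1036 to 1722, were also those of replicates 1, 5 and 9.

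Cxcl13, the chemokine that draws B cells, rose in mature kidney. It had 129, 170 and 324 on mature arrays and 67.0, 113 and 149 on young arrays, and 7 mature arrays lay above every young array. Cxcl13 had a log2 difference of 0.77 (SE 0.166, limma adjusted p = 0.0278). The rise was not called with the batch block (0.74, adjusted p = 0.0765), was called in 13 of 22 fits without 1 array, and passed on the 16 arrays at 0.78 (adjusted p = 0.0422). Of 14 measured lymphoid and myeloid genes none was called. At an unadjusted limma p below 0.05, 2 of the 14 were higher and none lower, against 116 and 151 of the 3837 named genes. Cd79b, a chain of the B cell receptor, had 0.62 (adjusted p = 0.651), and the summed intensity of the 14 genes was 5422 to 7378 on mature and 5388 to 8632 on young arrays. Lyz2 alone had medians of 3348 on mature and 3014 on young arrays, against 6573 and 6379 for the sum. The sum therefore says little about B cells. The part of leukocyte content in the Cxcl13 result was not tested beyond these values.

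Idi1, an isomerase of the pathway that leads to cholesterol, fell. It had 78.2, 144 and 214 on mature arrays and 169, 256 and 542 on young arrays, and 10 mature arrays lay below every young array. The log2 difference was -0.99 (SE 0.198, limma adjusted p = 0.0134) on 22 arrays and -0.62 (adjusted p = 0.0520) on the 16, where it was not called. Sqle, which makes squalene epoxide in the same pathway and was chosen after its values were seen, had -0.89 (adjusted p = 0.0970) on 22 arrays. Sqle fell on the 16 arrays at -0.43 (adjusted p = 0.0384), where the groups did not overlap. No list of sterol genes was counted.

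Of the 27 called probe sets, 13 have no single gene name in the annotation. M33648_at had the largest difference among the 27, 2.19 (SE 0.364, limma adjusted p = 0.00247), with 34.7, 262 and 636 on mature and 17.6, 26.3 and 104 on young arrays. The lowest mature values, 34.7 and 36.0, were those of replicates 1 and 9, of high GAPDH ratio. On the 16 arrays its difference was 2.49 (adjusted p = 5.27e-05), without overlap. Its young median lay close to the 15.82 added before log2, so the size of its difference depends on that offset. L14004UTR#1_s_at had 1846, 2412 and 2792 on mature and 1096, 1333 and 1793 on young arrays, without overlap. Its log2 difference was 0.74 (adjusted p = 0.000780), and 0.85 (adjusted p = 9.16e-05) on the 16 arrays. Among the falls, U75405UTR#1_f_at had -1.62 (SE 0.237, limma adjusted p = 0.000780), with 298, 518 and 2374 on mature and 1657, 2033 and 2484 on young arrays. The value of 2374 was that of mature replicate 9, and the difference was -1.79 (adjusted p = 9.16e-05) on the 16 arrays, without overlap. AF007758_g_at had -1.33 (adjusted p = 0.000780), and its values of 58.1 to 266 on mature arrays all lay below those of 303 to 732 on young arrays. Its difference on the 16 arrays was -0.92 (adjusted p = 0.000262).

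On the 16 arrays a set of metabolic genes rose that was not called on 22. Ehhadh, the bifunctional enzyme of peroxisomal fatty acid oxidation, had 950, 1237 and 1356 on the 8 mature arrays and 462, 634 and 914 on the 8 young arrays, without overlap. Its log2 difference there was 0.86 (SE 0.138, limma adjusted p = 0.00259), against 0.11 (adjusted p = 0.930) on 22 arrays. Mature replicates 1 and 9, of high GAPDH ratio, had Ehhadh at 157.7 and 54.1, below the other 9 mature arrays. Pck1, the first committed enzyme of glucose production, had 1001 and 370 on those 2 arrays, 6569 to 9875 on the other 9 mature arrays and 4475 to 7862 on the young arrays. The log2 difference of Pck1 was -0.09 (adjusted p = 0.947) on 22 arrays and 0.57 (SE 0.117, adjusted p = 0.0145) on the 16. These genes and those that follow, other than Bhmt, Eci1 and Ptgds, were chosen after their values were seen.

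Aldh6a1, which oxidises an intermediate of valine breakdown, had 3885, 4793 and 5718 on the 8 mature arrays and 2509, 3260 and 3546 on the 8 young arrays, and rose by 0.55 (limma adjusted p = 0.00635). Its difference on 22 arrays was -0.32 (adjusted p = 0.758), of the other sign. Rida, a deaminase of reactive amino acid intermediates, rose by 0.75 (adjusted p = 0.00380), and Bhmt, which remethylates homocysteine, by 0.45 (adjusted p = 0.0269). Rida had 0.10 (adjusted p = 0.919) and Bhmt 0.36 (adjusted p = 0.312) on 22 arrays. Eci1, an isomerase of unsaturated fatty acid oxidation, had 0.54 at its brightest probe set on 22 arrays (adjusted p = 0.132) and rose by 0.46 on the 16 (adjusted p = 0.0259). Its other tested probe sets were not called there, rc_AI170568_s_at at 0.33 (adjusted p = 0.0974) and rc_AA799541_at at -0.08 (adjusted p = 0.872). Gpd1, the cytosolic glycerol-3-phosphate dehydrogenase, rose by 0.73 (adjusted p = 0.0446), against -0.41 on 22 arrays. Ptgds, a prostaglandin D synthase, rose by 0.61 (adjusted p = 0.0143) and had 0.34 (adjusted p = 0.632) on 22 arrays. In the list of amino acid and gluconeogenic enzymes 32 of 42 genes were measured. On the 16 arrays Pck1, Aldh6a1 and Bhmt were called higher and none lower, 24 lay above 0 and the median was 0.11, against none called and a median of -0.12 on 22 arrays. Of 28 measured genes of fatty acid oxidation and peroxisomes, Ehhadh and Eci1 were called higher on the 16 arrays, 21 lay above 0 and the median was 0.16, against none called and 0.02 on 22 arrays. Over all named genes 0.73% were called higher and 58.7% lay below 0 on the 16 arrays.

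**Figure D3:**
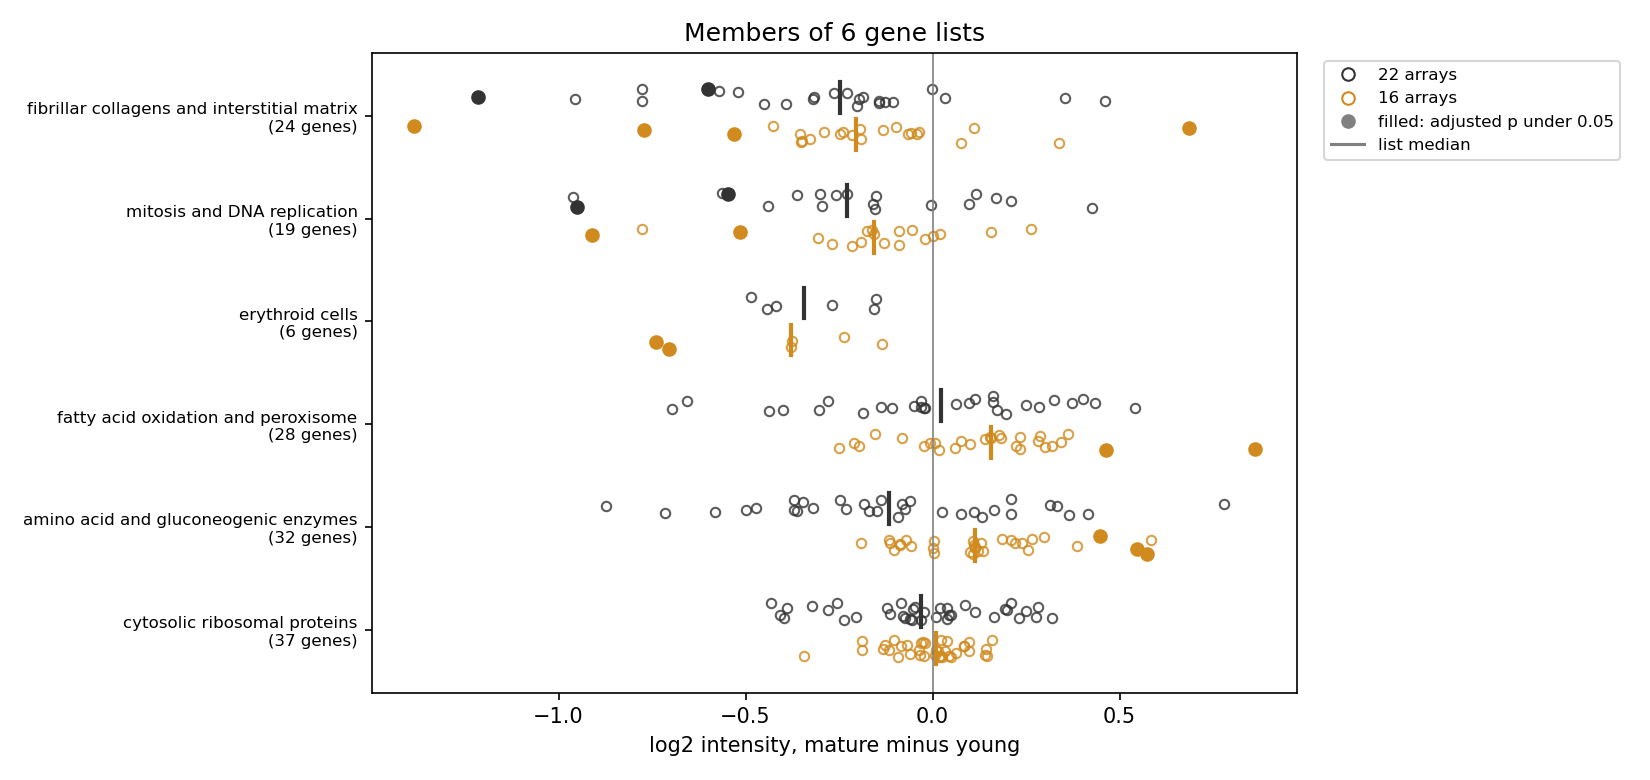
Log2 difference, mature minus young, of the measured members of 6 gene lists, each at its brightest probe set, on 22 arrays (dark) and 16 arrays (orange). Filled points passed an adjusted p of 0.05 over all 6555 probe sets and bars are list medians. Matrix, mitosis and erythroid members lie mostly left of 0 in both fits, while the medians of the metabolic lists lie at 0.02 and -0.12 on 22 arrays and at 0.16 and 0.11 on 16.

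Haemoglobin genes were lower on the 16 arrays. Hbb, a beta globin, had 3466, 4196 and 5980 on the 8 mature arrays and 6264, 7057 and 8435 on the 8 young arrays, and Hbb-b1 had 1806, 2113 and 2869 on mature arrays, against 2942, 3473 and 4475 on young arrays. Neither pair of groups overlapped, and the log2 differences were -0.74 (limma adjusted p = 0.00380) and -0.71 (adjusted p = 0.00259). On 22 arrays they were -0.48 (adjusted p = 0.361) and -0.44 (adjusted p = 0.461) and were not called. All 6 measured erythroid genes lay below 0 in both fits, with medians of -0.34 and -0.38. Over all named genes 50.8% lay below 0 on 22 arrays and 58.7% on the 16, where 0.443% were called lower. Alas2, which starts haem synthesis in red cell precursors, had median intensities of 494 on mature and 596 on young arrays. The summed intensity of the 6 genes was 6434.5 to 12609 on the 11 mature and 6865 to 13967 on the 11 young arrays, which overlap. On the 16 arrays it was 6434.5 to 10765 on mature and 11086 to 13967 on young arrays, and its part in the other falls was not tested. Beta globin probe sets of such close copies may read the same transcripts.

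Most other lists gave no call on 22 arrays. The circadian clock had 9 genes measured with a median of 0.03, and its output gene Dbp had 0.68 (adjusted p = 0.651) and its activator Bmal1 -0.42 (adjusted p = 0.652). Respiratory chain and ATP synthase (34 measured, median -0.04), cytosolic ribosomal proteins (37, -0.03), immediate early and heat shock (26, 0.0081) and interferon response genes (12, -0.01) had no call on the 16 arrays either. The same held for tubular injury and repair (23 measured, median -0.01), the IGF and growth hormone axis (15, 0.05), VEGF signalling and endothelium (11, 0.03), smooth muscle and mesangium (12, 0.0082) and podocyte genes (6, -0.11). Glutathione and conjugation enzymes (31 measured, median -0.09) had no call in either fit. Of the mixed list of androgen- and sex-responsive genes of kidney and liver, 11 were measured with a median of -0.0041. Odc1, the first enzyme of polyamine synthesis, singled out after its values were seen, was called lower on the 16 arrays at -0.45 (adjusted p = 0.0157). Of 26 eicosanoid and epoxide enzymes, Cyp2e1 was called higher on 22 arrays and Ptgds as well on the 16, with medians near 0. Markers of liver, fat, muscle and adrenal had 16 genes measured, a median of 0.05 and no call, and Cyp21a1 of the adrenal cortex had median intensities of 96.3 on mature and 148 on young arrays. The 15 measured genes reported in SHR held 1 call, Klk1, on 22 arrays and 2, Klk1 and Ptgds, on the 16. Both genes are also members of lists counted above. Over all named genes 0.287% were called on 22 arrays and 1.17% on the 16. Of the class II list 7 genes were measured and none was called on 22 arrays, and 1 was called higher on the 16. They are not read further because the class II locus chose the arrays.

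Levels on the X56596_at-low arrays of the other labels place these genes, as a description, since the batches differ between the labels. Col1a1 (M27207mRNA_s_at) averaged 11.89 ± 0.31 log2 units on 10 immature arrays, 10.72 ± 0.26 on 11 young and 9.51 ± 0.57 on 11 mature arrays (SD), and 10.04 ± 0.42 on 11 arrays with no stage word. Top2a averaged 8.80 ± 0.37, 8.33 ± 0.16 and 7.38 ± 0.27 in the order immature, young and mature, and 7.62 ± 0.33 without a stage word. Both therefore stood lower at each later stage word. Calb1 was 12.32 ± 0.08 on immature, 12.10 ± 0.23 on young and 11.36 ± 0.29 on mature arrays. The gap between its immature and young means was about as wide as the young SD and wider than the immature SD. Nefm ran the other way, with 5.22 ± 0.58, 6.49 ± 0.34 and 7.58 ± 0.63 on immature, young and mature arrays. Cxcl13 averaged 6.10 ± 0.26, 6.92 ± 0.32 and 7.69 ± 0.44 in that order. Cyp2e1 was lowest in the middle stage, with 12.48 ± 0.48 on immature, 11.80 ± 0.28 on young and 12.56 ± 0.16 on mature arrays. Acaa1b had a similar order, with 9.75 ± 0.27, 9.03 ± 0.19 and 9.83 ± 0.41. The immature and mature means of Cyp2e1 and Acaa1b lay within their spreads.

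**Figure D4:**
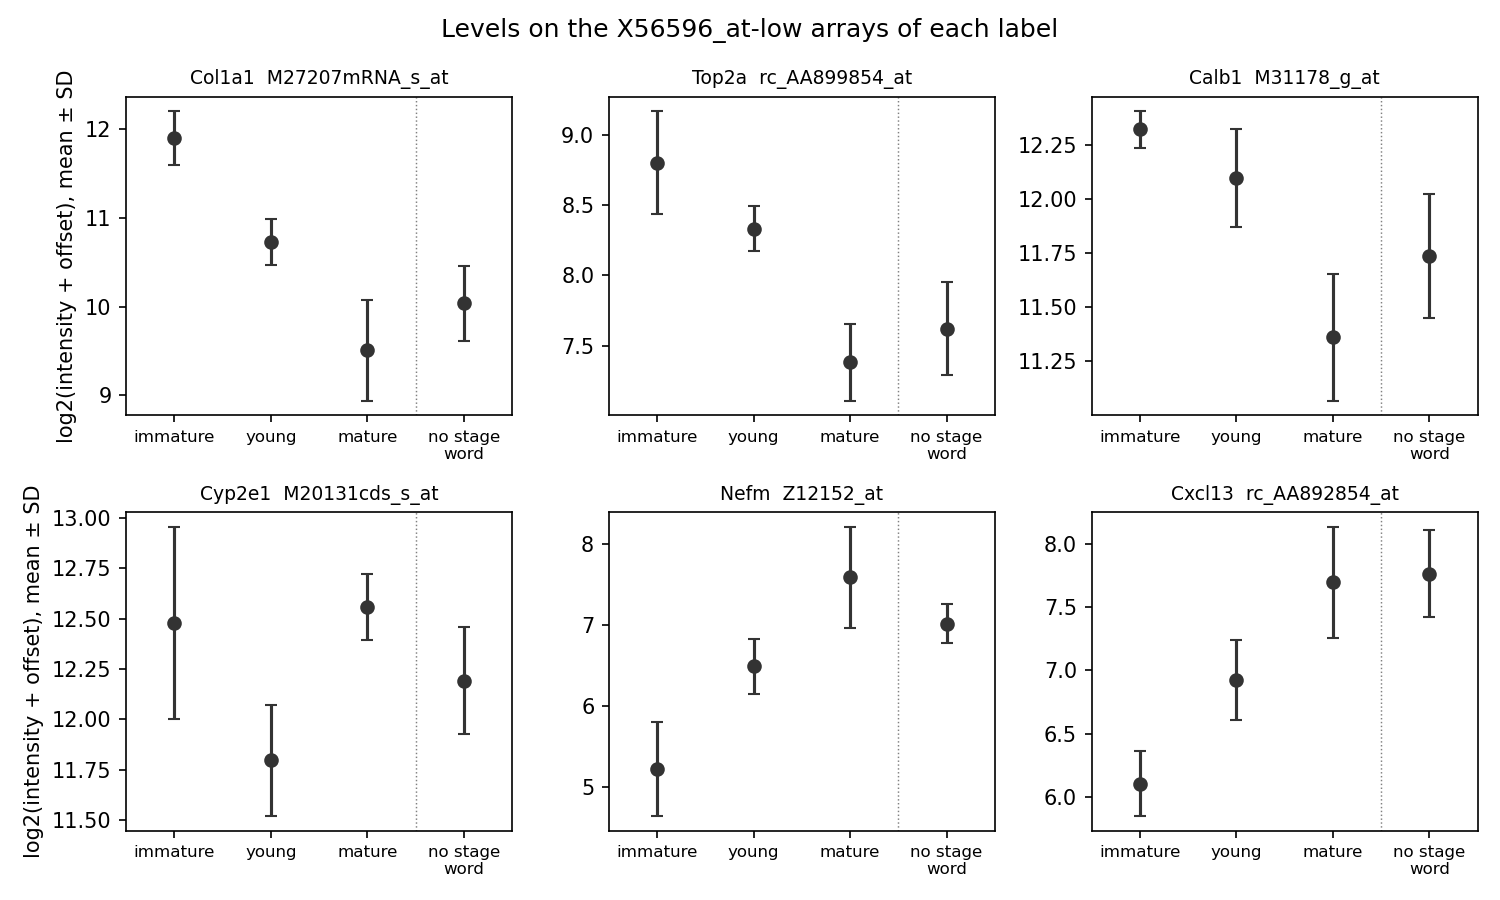
Mean log2(intensity + offset) with SD for 6 probe sets on X56596_at-low arrays, with 10 immature, 11 young, 11 mature and 11 arrays without a stage word (right of the dotted line, outside the stage order). The means of Col1a1, Top2a and Calb1 are lower at each later stage word, those of Nefm and Cxcl13 are higher, and Cyp2e1 is lowest in young kidney.

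The same stages were also present on the arrays set aside, 3 mature and 3 young with high X56596_at. The difference between the mature minus young change on low and on high arrays was tested for every probe set, and 9 of 6555 were called (0.137%), against 541 at an unadjusted p below 0.05 (8.25%). With the control-probe batch as a block 7 were called (0.107%) and none of the 9 was among them, although all 9 kept their sign. The 3 arrays that carry the mature side of the high class share their batch with 1 low mature array alone, replicate 5, so that array sets the block there. Without young replicate 1, 2 or 14, the 3 young high arrays, Glul alone of the 9 was called in the fit without the block. Mature replicate 12, 1 of the 3 mature high arrays, had a GAPDH ratio of 2.62 and an actin ratio of 2.82, and without it 3 differences were called. Of the 27 probe sets called above, L14004UTR#1_s_at alone was among the 9, at 0.74 on low arrays and -0.51 on high arrays, and its difference was not called with the block (adjusted p = 0.266). For the named calls the changes on the high arrays lay on the same side of 0 except for Cxcl13, at -0.14, whose difference from the low arrays of 0.91 did not pass (adjusted p = 0.519). Top2a, for one, had -0.95 on low and -1.21 on high arrays, and the difference of 0.26 had a 95% interval of -0.21 to 0.72. Glul, which makes glutamine, had the smallest p. It had medians of 14407 on mature and 12953 on young low arrays and of 2774 on mature and 12159 on young high arrays, a difference between classes of 2.41 (SE 0.305, limma adjusted p = 7.04e-05), and 1.97 with the block (adjusted p = 0.0571). Cox4i1, a subunit of cytochrome c oxidase, had medians of 13751 on mature and 14020.1 on young low arrays and of 2322 on mature and 11095 on young high arrays, a difference of 2.33 (adjusted p = 0.0165), and 0.92 with the block (adjusted p = 0.770). Mep1b ran the opposite way, with medians of 850 on mature and 1237 on young low arrays and of 2852 on mature and 1553 on young high arrays, a difference of -1.50 (adjusted p = 0.0267), and -1.07 with the block (adjusted p = 0.627). The 3 mature high arrays all lay in the batch of mature replicate 5 and the 3 young high arrays all in the batch of young replicates 3, 4 and 13. Stage and batch cannot be told apart on the high arrays.

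**Figure D5:**
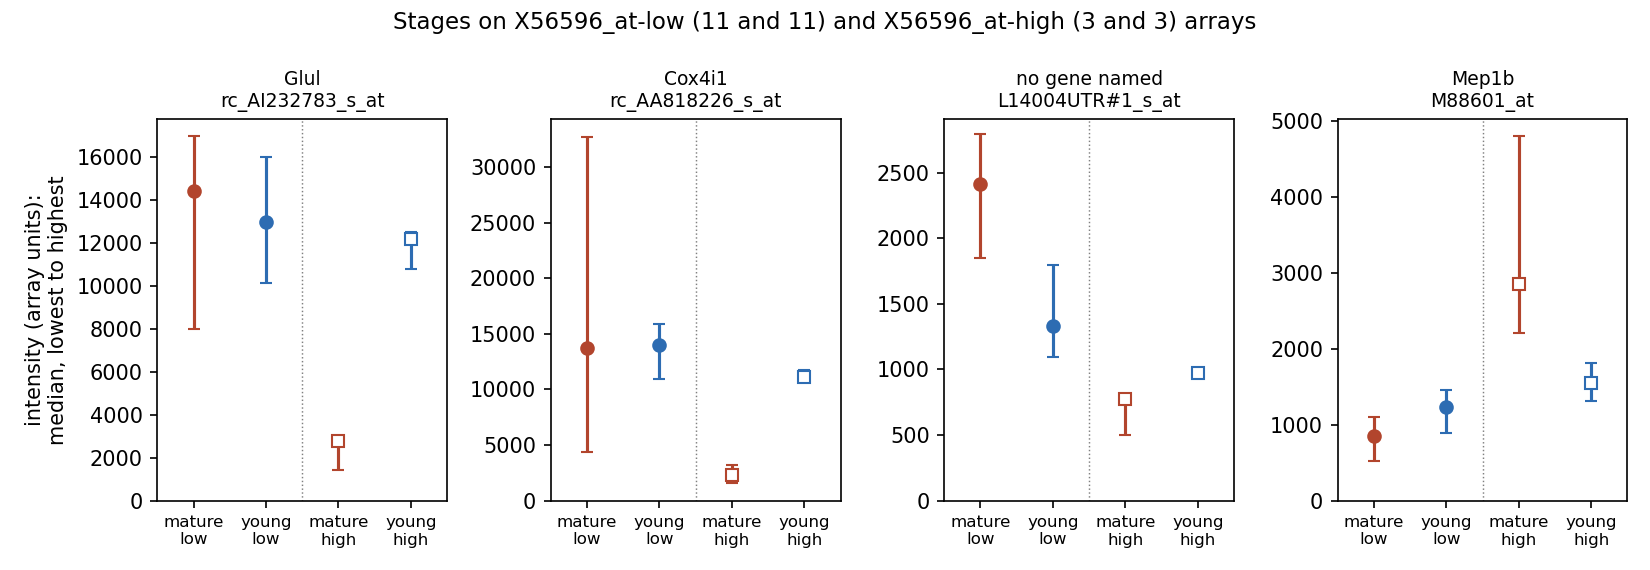
Median intensity with lowest and highest value on X56596_at-low arrays (filled, 11 mature and 11 young) and X56596_at-high arrays (open, 3 and 3) for 4 of the 9 probe sets whose mature minus young change differed between the classes in the fit without a batch block. Glul and Cox4i1 are low on the mature high arrays, L14004UTR#1_s_at is high on the mature low arrays, and Mep1b is highest on the mature high arrays.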

How the data were processed

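The authors deposited 1 linear intensity for each of 8799 probe sets on every array. How probes were summarised is not given in the sources used here. Their trimmed mean (2% off each end) was 500.2 to 500.7 on all 55 arrays, so the deposited scaling was kept. Values below 0 were raised to 0, then 15.82 (0.1 of the median intensity) was added before taking log2. After removal of 59 control probe sets and of those under the 25th percentile of mean log2, 6555 were fitted in limma 3.58.1 (lmFit, eBayes, R 4.3.3), 2-sided. Fold changes of dim probe sets are understated. The platform annotation gave 7018 probe sets 1 symbol, 308 several and 1473 none, and 6994 symbols were updated through RefSeq GRCr8. A gene stands for its brightest probe set. Batches are 3 Ward clusters of 42 control probe sets. Technical measures were compared by permutation (100000 resamples, exact where a group has 8 arrays). Named genes are the up to 12 largest called rises and falls, the 3 smallest p of each of 26 lists and those marked. Members and lists were chosen with earlier results of these data known. Alternatives changed the normalisation, offset, filter, prior, array weights, X56596_at limit, batch and arrays. The fit was tested on simulated data. The number of arrays limits the precision.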

Additional observations from a re-analysis of the deposited data

Results flagged for a closer look

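The mature minus young change differed between X56596_at-low and X56596_at-high arrays at 9 probe sets, by the interaction test in limma on 14 mature and 14 young arrays. Glul differed by 2.41 on the log2 scale, Cox4i1 by 2.33, Cabin1 by 2.01, Dpm2 by 1.23 and Atp5f1a by 1.19, low minus high arrays, each with the lower mature minus young change on the high arrays. L14004UTR#1_s_at differed by 1.25 and a further probe set that the annotation leaves unnamed by 1.84. Mep1b differed by -1.50 and Map3k1, a kinase of stress signalling, by -1.44, each with the higher change on the high arrays. None of the 9 was called with the control-probe batch as a block. Without young replicate 1, 2 or 14, each an array of high X56596_at, only 1 of these differences was called, and 33 were called without mature replicate 5.

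Among the 8 young arrays of the 16, young replicate 5 had the lowest Cyp2e1 value, 11.08 log2 units, apart from the others at 11.79 to 12.23. Young replicate 12 had the lowest Calb1 value, 11.56, apart from the others at 11.91 to 12.19. Of 54 groups of 8 values examined, these 2 were marked, and chance marks about 1 in 20.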

How the results depend on the processing

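Of the 27 calls, 21 held in all 22 fits that left out 1 array, which called 21 to 32 probe sets, 10 to 16 higher and 11 to 18 lower. The calls lost in some were Col1a2, Cxcl13 and 4 probe sets without a single gene name. Quantile normalisation, median centring, both other offsets, no filter, a 50th percentile filter and a trended prior left 22 to 30 calls.
Other settings moved the counts. Called in all, higher and lower were 44, 23 and 21 without high GAPDH ratios, 17, 8 and 9 in the shared batch, and 90, 53 and 37 in both together. They were 61, 22 and 39 with all 55 arrays in 1 fit, 68, 34 and 34 with array weights, and 49, 13 and 36 with no X56596_at limit. Added after seeing the data, leaving out mature replicate 5 and young replicate 12 with the high GAPDH ratios gave 63, 33 and 30, and the 16 arrays without young replicate 12 gave 100, 57 and 43.
Differences between X56596_at classes numbered 81 without high GAPDH ratios, 15 with all arrays, 16 after quantile normalisation, 4 after median centring, 712 with array weights and 1 to 33 without 1 array. With the batch as a block 7 were called, none of them among the 9, whose smallest adjusted p was then 0.0571 (Glul).
The sign turned, on leaving out high GAPDH ratios, alone, in the shared batch, with mature replicate 5 and young replicate 12 also out, or in the shared batch without young replicate 12, for Pck1 (0.58, 0.57, 0.60 and 0.52), Timp3 (0.31, 0.69, 0.59 and 0.62), Gpd1 (0.13, 0.73, 0.49 and 0.73) and Aldh6a1 (0.058, 0.55, 0.31 and 0.57). With array weights these 4 had 0.54, 0.50, 0.38 and 0.29, and in the shared batch or with its block Timp3 had 0.023, Gpd1 0.060 and Aldh6a1 0.079. Without 1 array Pck1 ranged from -0.19 to 0.28, Timp3 from -0.34 to 0.042 and Cyp2c11 from -0.063 to 0.14. Klf6 turned to -0.13 and -0.10 and Igfbp5 to -0.030 and -0.023 on the 16 arrays with and without young replicate 12, and Rida to -0.20 with no X56596_at limit. The GAPDH ratio of mature replicates 1 and 9 moves with Pck1, Timp3, Gpd1 and Aldh6a1, and the cause was not tested for these or the other results above.
The smallest named difference called on 22 arrays was that of Cdc20, -0.55 on the log2 scale. It is no limit of detection, since larger differences were not called, such as Cdk1 at -0.96 and Sqle at -0.89. Differences above and below that size may have been missed at this spread. No paired analysis was possible because the replicate numbers were given in accession order and pair no arrays.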
